A study of Drosophila melanogaster with 2 samples.

Results

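Of the 2174 NC2alpha peaks that the authors kept as reproducible, called the optimal list here, 368 had their summit more than 100 and up to 500 bp upstream of the transcription start site (TSS) of a single protein-coding gene. These upstream peaks made up 16.9% of the list (exact 95% binomial interval 15.4 to 18.6, counting error only) and lay at 342 genes. A peak was a member where TSSs of exactly 1 protein-coding gene in Ensembl release 115 fell within 500 bp of the summit and the summit lay over 100 bp upstream, on the gene's strand, of the nearest of them. Within the optimal list, position and annotation alone chose the members, and no signal value was used. The list itself had passed the authors' filter for reproducible peaks, and its lowest signal was 82.0, against 23.8 before the filter. Signal and agreement between replicates are thus compared only among peaks that passed it. The optimal list also held 302 core peaks, with the summit within 100 bp of the TSS of a single coding gene on either side, and 367 peaks at the TSSs of coding genes on both strands (divergent peaks). A further 59 single-gene summits lay over 100 bp downstream of the TSS, 21 lay at coding genes on the same strand, 218 lay over 500 and up to 1000 bp from the nearest coding TSS, and 839 lay farther away.

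The chromatin came from whole Drosophila melanogaster embryos of mixed sex, 0 to 24 hours old, of a transgenic line that stably expresses NC2alpha with eGFP at its C terminus. An antibody against GFP recovered the fragments bound by the fusion protein, and 2 biological replicates were sequenced. Both replicates carry the same genotype, stage and antibody, so there is 1 group and no condition was compared. All cell types and all embryonic stages were pooled, and the labels do not say whether the native protein was still present.

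NC2 is a heterodimer of NC2alpha and NC2beta with histone-fold domains that binds TATA-binding protein on DNA and hinders the entry of other general transcription factors. It was first described as a repressor of TATA-containing promoters, and in Drosophila extracts it has also been found to activate promoters that carry a downstream promoter element. A core promoter is the stretch around the TSS on which the general factors assemble, so the summits described here lay outside it, on the upstream side. Signal means the strength the authors deposited for each peak; no source used here states its scale, so it only ranks and compares peaks of a list. Peaks are not replicates of a condition, so counts, medians and the values of both replicates are given without a test between groups of peaks.

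The next 5 windows show the sequence under 5 of the strongest upstream peaks. They are richer in A and T than some other strong members: over 75 bases on each side of the summit, the 25 strongest had a median GC content of 34.4%, up to 45.7% at Sox14 and 48.3% at MFS10, and the other members 35.1%. Each covers the summit and 50 bases on each side, read 5′ to 3′ along the gene's strand from the Release 6 reference (RefSeq, the same assembly as dm6). Capitals mark matches to any of 10 searched motifs on either strand and to the 5-base word CTTAA or its complement TTAAG, which was picked after a scan of short words in these data.
ph-p (chrX:2137287-2137387, minus strand): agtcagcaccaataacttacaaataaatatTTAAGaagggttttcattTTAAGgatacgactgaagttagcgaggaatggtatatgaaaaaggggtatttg
CG18549 (chr3R:12449128-12449228, plus strand): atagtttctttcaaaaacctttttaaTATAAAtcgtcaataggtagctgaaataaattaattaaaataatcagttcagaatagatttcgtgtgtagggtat
CG31145 (chr3R:23669813-23669913, minus strand): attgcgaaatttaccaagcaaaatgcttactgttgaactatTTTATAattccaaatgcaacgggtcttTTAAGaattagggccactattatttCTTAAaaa
larp (chr3R:28326539-28326639, minus strand): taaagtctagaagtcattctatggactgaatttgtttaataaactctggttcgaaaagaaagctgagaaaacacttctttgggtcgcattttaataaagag
Rtnl1 (chr2L:4997605-4997705, minus strand): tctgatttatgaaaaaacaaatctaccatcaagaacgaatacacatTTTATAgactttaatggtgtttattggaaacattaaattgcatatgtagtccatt
The GC content of these 5 windows lay between 24.8% at CG18549 and 32.7% at ph-p and larp. In 3 of them TATAAA or its complement occurs, in CG18549, CG31145 and Rtnl1, and in 2 of them CTTAA or TTAAG occurs, in ph-p and CG31145. The larp window holds none of the searched letters, and neither does that of gish (signal 671), which is not shown. With 75 bases on each side, TATAAA was found in 26.1% of all members and in 27.2% of windows 212 bp upstream of all coding genes. For CTTAA these shares were 41.6% and 35.3%.

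Members with a motif known from Drosophila promoters were few for most motifs, and the next windows show examples. They were taken as the strongest member with each motif within 50 bases of the summit. The cbt and nebu windows hold the GAGA element (GAGAG), the CG8036 window the E-box CAGCTG, the wake window the Ohler 7 motif (CATCNCTA), the Vha68-2 window the Ohler 1 motif (GGTCACAC) and the Dph1 window the Zelda motif (CAGGTAG).
cbt (chr2L:480079-480179, minus strand): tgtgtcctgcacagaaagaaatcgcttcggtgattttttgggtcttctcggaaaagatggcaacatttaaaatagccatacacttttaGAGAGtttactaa
nebu (chr3L:12843191-12843291, minus strand): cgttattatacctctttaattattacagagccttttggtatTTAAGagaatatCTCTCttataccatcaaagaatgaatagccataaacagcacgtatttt
CG8036 (chr3R:8669379-8669479, plus strand): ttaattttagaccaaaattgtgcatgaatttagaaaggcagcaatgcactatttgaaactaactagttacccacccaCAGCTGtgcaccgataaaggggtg
wake (chr3R:22673640-22673740, plus strand): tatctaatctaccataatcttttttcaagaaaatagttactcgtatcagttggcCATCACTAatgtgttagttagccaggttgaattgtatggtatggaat
Vha68-2 (chr2L:12974085-12974185, plus strand): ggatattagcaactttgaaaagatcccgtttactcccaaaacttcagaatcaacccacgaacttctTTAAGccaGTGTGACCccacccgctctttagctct
Dph1 (chr3L:11696563-11696663, minus strand): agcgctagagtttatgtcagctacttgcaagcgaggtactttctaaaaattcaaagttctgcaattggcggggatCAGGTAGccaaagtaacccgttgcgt
For contrast, these 2 windows are from the strongest core peaks with a DNA replication-related element (DRE, TATCGATA) near the summit. Such a match occurred near the summit of only 2 of the 368 upstream peaks.
eEF1gamma (chr3R:29220086-29220186, plus strand): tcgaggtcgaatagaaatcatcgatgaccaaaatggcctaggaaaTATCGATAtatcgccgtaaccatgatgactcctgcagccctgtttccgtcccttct
Abl (chr3L:16647877-16647977, minus strand): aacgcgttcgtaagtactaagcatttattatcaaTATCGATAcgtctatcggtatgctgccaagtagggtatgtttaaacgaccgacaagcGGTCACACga
The eEF1gamma summit lay 36 bp and the Abl summit 45 bp upstream of the TSS. Their windows held 46.5% and 42.6% GC.

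The TSSs of the member genes are shown by the next 3 windows, which cover 40 bases on each side of the TSS at 3 of the strongest members with an Initiator. Capitals mark the letters searched, TCAGT, an abridged form of the Initiator, the element that overlaps the start site.
CG31145 (chr3R:23669619-23669699, minus strand): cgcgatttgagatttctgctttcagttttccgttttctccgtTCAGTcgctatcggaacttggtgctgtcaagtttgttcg
CG13921 (chr3L:1746867-1746947, plus strand): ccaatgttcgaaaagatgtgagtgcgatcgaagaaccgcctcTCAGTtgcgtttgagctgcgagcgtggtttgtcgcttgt
CG17896 (chrX:493455-493535, minus strand): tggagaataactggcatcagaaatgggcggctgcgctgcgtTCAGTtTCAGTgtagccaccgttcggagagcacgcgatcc
The summit lay 204 bp upstream of this TSS at CG31145, 106 bp at CG13921 and 481 bp at CG17896.

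Most summits lay in the nearer part of the range. The median distance to the TSS was 212 bp, with quartiles of 150 and 317 bp and a maximum of 498 bp. The nearest 100 bp of the range (up to 200 bp) held 162 members, the next held 102, the third 58 and the farthest (over 400 bp) 46. The median signal in these 4 parts was 132, 140, 136 and 115, from the nearest to the farthest, with quartiles that overlapped. The strongest peak in the whole optimal list, at px, was in the nearest part, and the next strongest member, at ph-p, was in the farthest.

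**Figure D1:**
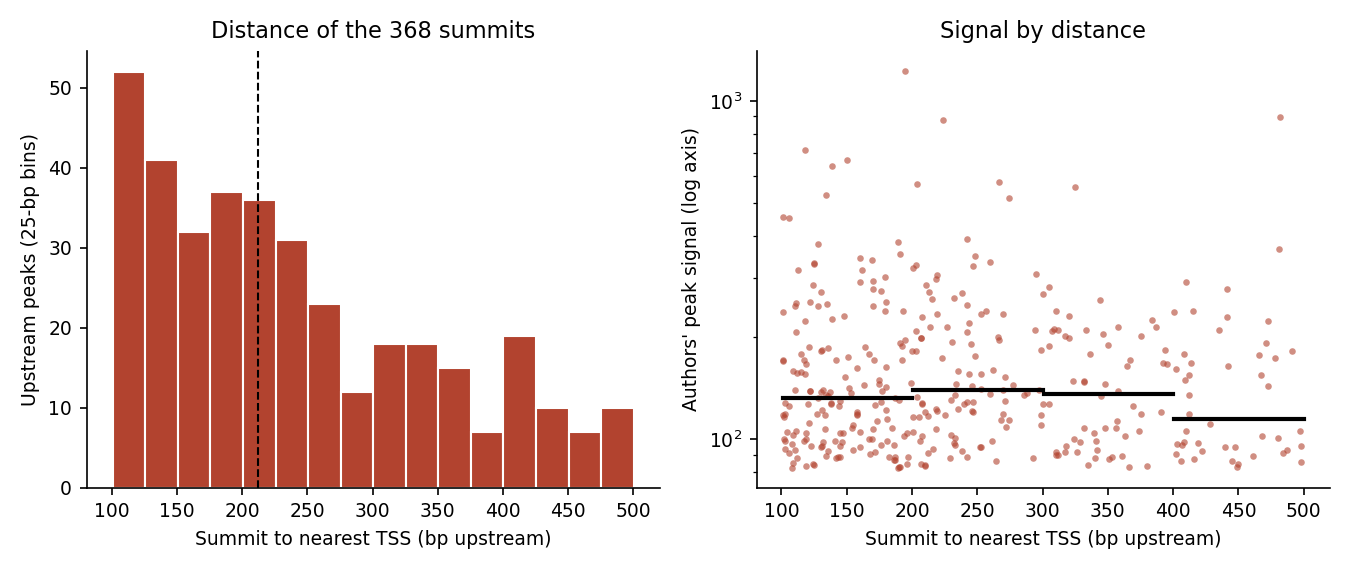
The left panel counts the 368 upstream peaks by the distance of the summit from the nearest TSS (bp), in bins of 25 bp, with the median of 212 bp dashed. The right panel plots each peak's signal (log axis) against the same distance, with a bar for the median of each 100-bp range; the bars lie between 115 and 140.

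Values overlapped across the edges of the range. Members nearest the inner edge, 1 bp past 100, were eIF6 (signal 454), CG11857 (237), CG17726 (172) and CG33169 (170), and core peaks at 100 bp were Hsp83 (268), CG31635 (191) and RhoGAP93B (149). At the far edge fzr (95.7) and ush (85.7) had summits at 498 bp, CG42571 (106) at 497 bp, CG10479 (182) at 491 bp and RapGAP1 (93.0) at 487 bp. Beyond 500 bp, nw (92.6) lay at 503 bp and CG13970 (99.3) at 506 bp.

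The error of a summit was small beside the width of the range. The summits called in the 2 replicates lay a median of 30 bp apart (quartiles 12 and 62 bp), and 247 of the 368 pairs (67.1%) were within 50 bp. In 315 members (85.6%) the summits of both replicates also fell over 100 and up to 500 bp upstream of the same TSS. In 41 members at least 1 replicate summit fell within 100 bp of it, and in 1 member both did. The Rtnl1 summit lay 270 bp upstream in replicate 1 and 279 bp in replicate 2, while the kis summit at 108 bp lay at 58 bp in replicate 1 and 120 bp in replicate 2.

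A separate peak at the TSS itself was called for few upstream peaks. Among the 30000 pooled peaks from before the filter, which reach down to a signal of 23.8, a summit within 100 bp of the same TSS was present for 31 members (8.42%). The share was 5.29% without replicate 1 and 13.7% without replicate 2. Counting any TSS of the gene, the number was 124 (33.7%). In the 31 cases the peak at the TSS had a median of 0.352 times the signal of the upstream peak, and it was the stronger in 2. These were CG31635 (127 upstream, 191 at the TSS) and MFS18 (120 upstream, 142 at the TSS). At CG8036 the upstream peak had a signal of 382 and the peak at the TSS 137. Peaks in the list were about 404 bp wide, so a weaker neighbour close to a strong summit may not have been called separately. The closest optimal summit to any member was 199 bp away, and 162 members lay up to 200 bp from the TSS. For these, much of the stretch around the TSS may have been too close for a second call. The share of other TSSs with such a peak was not counted, so the 8.42% has no reference.

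Upstream peaks had a higher median signal than core peaks, in the pooled values and in each replicate. The pooled median was 135 (quartiles 100 and 200), against 112 (91.8 and 146) for core peaks, 122 for divergent peaks and 118 for the whole list. In replicate 1 the medians were 77.1 for upstream peaks and 71.7 for core peaks, and in replicate 2 they were 62.2 and 43.9. The ratio of the medians was 1.08 in replicate 1 and 1.42 in replicate 2. Upstream peaks made up 26 of the 100 strongest peaks and 24.8% of the 500 strongest, against 22 and 18.4% for divergent peaks and 8 and 10.2% for core peaks. Among peaks ranked below the first 1500 the order was the other way round, with 13.4% upstream and 16.3% each of core and divergent peaks. In the strongest 4348 pooled peaks, which reach below the cut of the optimal list, core peaks were the more numerous, with 641 against 586 upstream peaks.

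A larger share of upstream peaks than of core peaks was matched among the strongest peaks of both replicates. Being among the strongest peaks of a replicate is itself a cut on signal, so this share is not independent of the signal difference above. Upstream peaks had the higher median in replicate 1 (77.1 against 71.7 for core peaks) and in replicate 2 (62.2 against 43.9). Whether the shares differ at equal signal was not tested. Of the 368 members, 284 (77.2%) overlapped one of the 2174 strongest peaks of each replicate by at least 1 base, against 164 of 302 core peaks (54.3%) and 66.2% of all optimal peaks. Replicate 1 alone held 322 members among its strongest and replicate 2 held 323, while 7 members were in neither. Replicate 1 values were a median of 1.31 times those of replicate 2 over the whole list. After division by that factor, 25 members (6.79%) differed more than 2-fold between replicates, against 62 of the 294 core peaks with a value in both (21.1%) and 12% of the list. The median ratio was 1.25 in upstream peaks and 1.61 in core peaks, and after division by these instead, 26 upstream (7.07%) and 51 core peaks (17.3%) differed more than 2-fold. The SD of the log2 ratio between replicates was 0.55 for upstream peaks, 0.73 for core peaks and 0.64 for the list. Other promoter peaks were nearer to upstream peaks than core peaks were. Of divergent peaks 69.5% were matched in this way and 9.26% differed more than 2-fold by the list's factor, with an SD of 0.59. For the 21 peaks at coding genes on the same strand the values were 76.2%, 5.0% and 0.53.

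**Figure D2:**
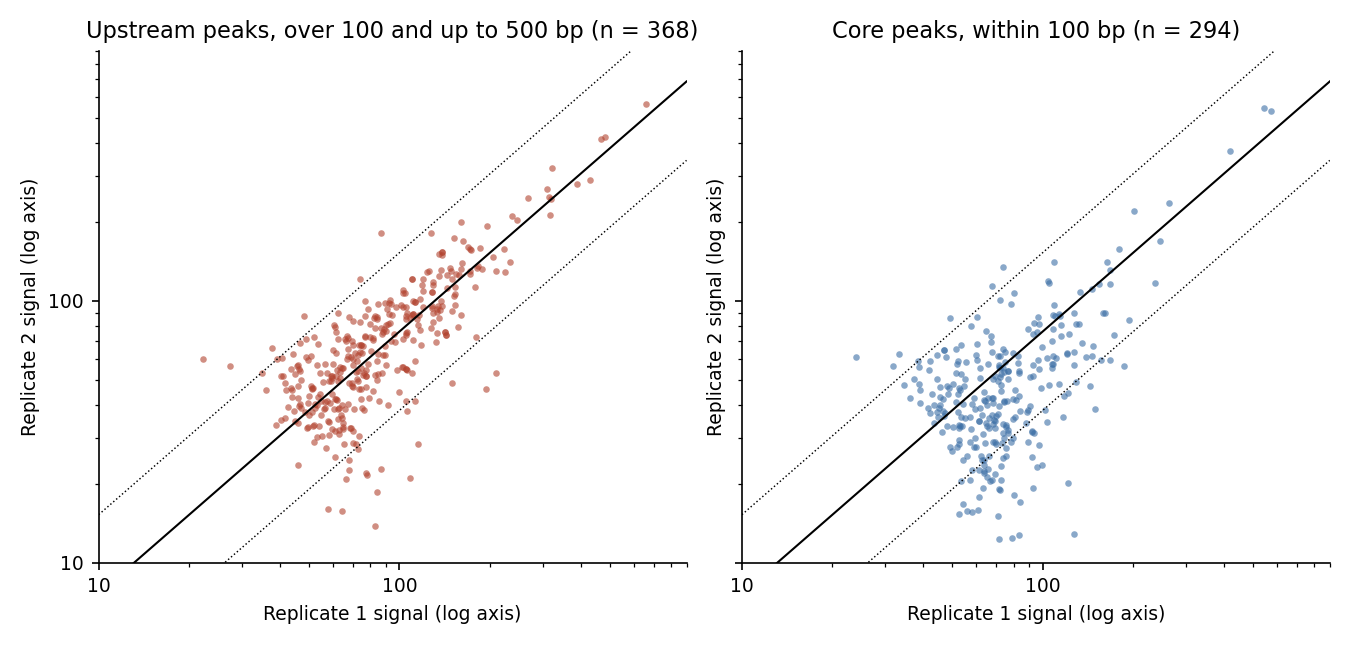
Each point is a peak, with its signal in replicate 1 on the horizontal axis and in replicate 2 on the vertical axis (both log), for 368 upstream peaks (left) and 294 core peaks (right). The solid line is the median ratio of 1.31 over all optimal peaks and the dotted lines are 2-fold from it; 25 upstream and 62 core peaks lie outside them.

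Base composition moved with this difference between replicates. The window of 75 bases on each side of the summit had a median GC content of 35.1% in upstream peaks (quartiles 30.5 and 41.1) and 45.7% in core peaks (41.1 and 50.2). Across the whole list, replicate 1 was a median of 1.18 times replicate 2 where the window held under 35% GC, 1.35 times at 35 to 45% and 1.57 times at 45% or more. Upstream peaks followed the same order, at 1.23, 1.25 and 1.43 times. Within 35 to 45% GC, the median signal was 125 in 139 upstream peaks and 113 in 116 core peaks. At 45% or more it was 119 in 49 upstream peaks and 108 in 169 core peaks. The part that base composition or its reading by either library has in the difference between upstream and core peaks was not tested.

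The strongest upstream peak lay at plexus (px, FBgn0003175), a gene named for its extra wing veins when mutant, with 658 in replicate 1 and 566 in replicate 2. Its summit lay 195 bp upstream of a TSS, inside an intron of the gene itself. Polyhomeotic proximal (ph-p, FBgn0004861), a subunit of Polycomb repressive complex 1, had 481 and 421, with the summit 482 bp upstream. CG1888 had 466 and 414. These 3 were the only members above 450 in replicate 1, and all had values over 400 in both replicates.

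The next members were CG18549, with 431 in replicate 1 and 289 in replicate 2, and gilgamesh (gish), a casein kinase I, with 390 and 279. The mitochondrial ribosomal protein gene mRpL41 had 321 and 322, nearly equal values. Sox14, an HMG-box transcription factor, had 310 and 268. CG31145 had 313 and 250, and larp, an RNA-binding protein of the La-related family, had 318 and 245. Fkbp14, a peptidyl-prolyl isomerase, had 316 and 213, and Rtnl1, a reticulon that shapes the endoplasmic reticulum, had 268 and 246. In every one of these except mRpL41 replicate 1 was the higher, as at the median of the list.

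Other members of the strongest 25 included eIF6, a factor that keeps ribosomal subunits apart (237 in replicate 1 and 211 in replicate 2), Atf3, a bZIP transcription factor (195 and 193), aay, a phosphoserine phosphatase (224 and 129), and gro, the Groucho corepressor (163 and 169). The remainder were CG13921, CG8036, CG1635, CG17896, CG6966, CG11151, brwl, CBP, CG1607 and MFS10. All 25 ranked 99 or better in the list, and the lowest values among them were 160 in replicate 1 and 129 in replicate 2. The scaled log2 ratio between replicates ran from -0.71 at CG17896 to 0.41 at aay. In 13 of the 25 the summit lay in an intron of a coding gene and in 8 between genes.

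**Figure D3:**
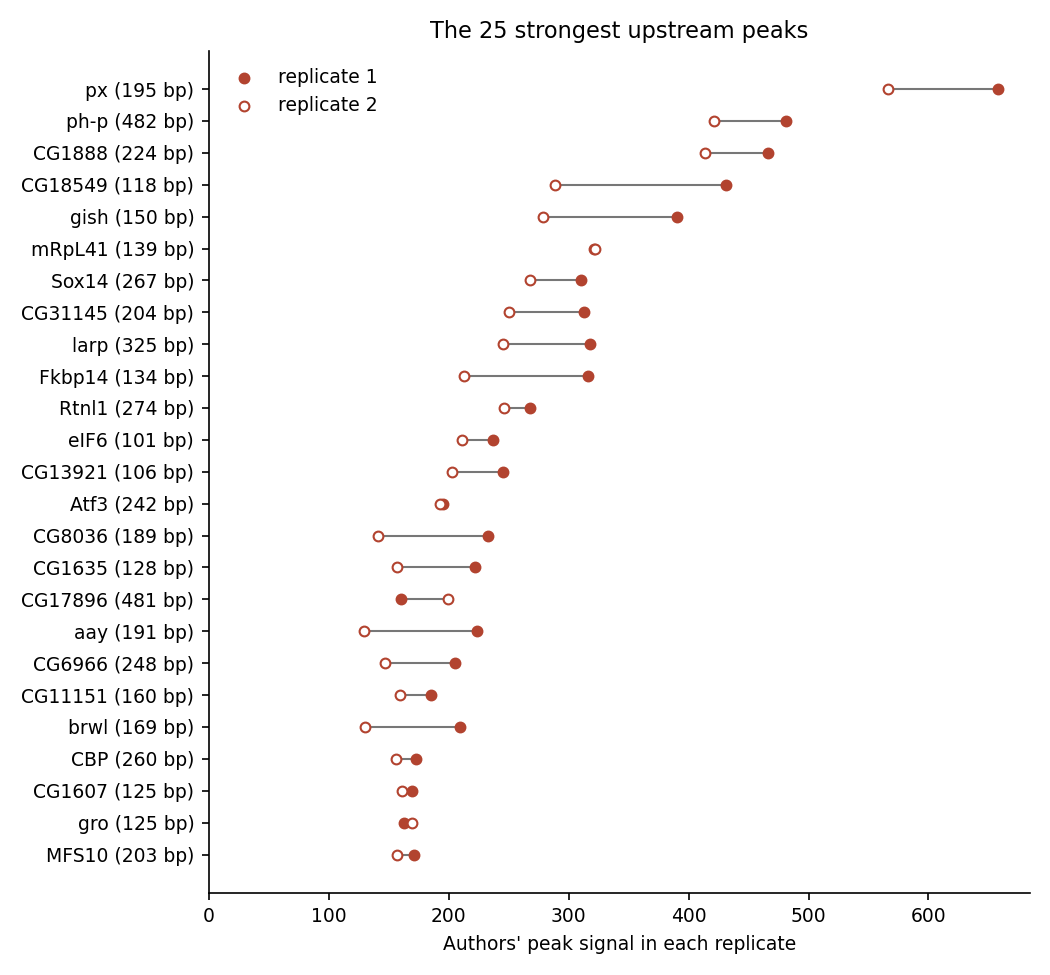
Signal in replicate 1 (filled) and replicate 2 (open) of the 25 strongest upstream peaks, ordered by pooled signal, with the distance of the summit upstream of the TSS in parentheses. The values run from 658 and 566 at px to 171 and 157 at MFS10, and replicate 2 is the higher in 3 of the 25.

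At the other end, the weakest members were kis (signal 82.2), galectin (82.3), Abca3 (82.6), Ogdh (82.8) and CG33170 (82.9), close to the lowest optimal signal of 82.0. Members with the most unequal replicates were pyd, with 82.8 in replicate 1 and 13.8 in replicate 2, Mrp4 (108 and 21.0), twz (22.3 and 60.1), CG14478 (84.0 and 18.7) and CG6785 (194 and 46.2). At 4 of these 5 replicate 1 was the higher. The summit of pyd, which encodes a junction scaffold protein, lay 107 bp upstream in replicate 1 and 220 bp in replicate 2.

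By annotation, 178 summits (48.4%) lay between genes, against 37.8% of all optimal summits. A further 149 (40.5%, against 43.4%) lay in an intron of a coding gene, and in 128 of these the intron belonged to the gene of the nearest TSS, so that the summit was upstream of one start site and downstream of another. Few lay in a 5′ UTR (17), a 3′ UTR (10) or coding sequence (3), and 11 lay in non-coding genes only. In all 146 summits were inside the gene they were assigned to. The nearest TSS was the most upstream one of its gene in 222 members and the representative one, with the most transcripts, in 237 (64.4%). Intronic members had a median signal of 150 and intergenic ones 128.

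The rule left out a second coding TSS within 500 bp of the summit, and neighbours were counted beyond it. Inside another coding gene lay 42 summits, for example that of eIF6 in ytr and that of CG11151 in Grip91. An opposite-strand coding TSS lay over 500 and up to 1000 bp from the summit in 29 members (7.88%), and up to 2000 bp in another 39. The nearest was at Gpdh1, whose summit lay 503 bp from the TSS of Sfp26Ad. The median signal was 126 in the 29 members and 137 in the 300 with no such TSS within 2000 bp. A TSS of a non-coding gene lay within 500 bp of the summit in 30 members (8.15%) and within 100 bp in 6.

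Member genes were long and often had several start sites, as were genes with core peaks. Several TSSs were annotated for 61.4% of the 342 genes of upstream peaks, 59.0% of the 300 genes of core peaks and 26.5% of all 13945 protein-coding genes. Median gene lengths were 7142, 4854 and 2166 bp in the same order. A gene with more TSSs offers more positions at which a summit can meet the rule, and the part this has was not tested. The members were spread over the chromosomes, with 76 on 2L, 70 on 2R, 69 on 3L, 78 on 3R, 73 on X and 2 on 4. They made up 14.8% of the optimal peaks on 3R and 20.3% of those on X.

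There were 21 genes with several upstream peaks: 17 with 2, 3 with 3 and 1 with 4. The 4 peaks of dunce (dnc), a cAMP phosphodiesterase, lay at 3 of its TSSs, with signals of 308 (295 bp upstream), 202 (375 bp), 113 (173 bp) and 88.0 (340 bp). Ptpmeg2, a tyrosine phosphatase, had 3 peaks of 306, 255 and 197 at 3 TSSs. Rtnl1 likewise had 3, of 516, 200 and 88.9, and larp had 2, of 557 and 153, at 2 TSSs. In 12 of the 21 genes the peaks were at different TSSs and in 9 at the same one. Where 2 summits lay at the same TSS, they were often about 200 bp apart. In all 29 members had another optimal summit within 250 bp, a median of 200 bp away (199 to 227 bp), and such pairs can share a replicate peak and so its value. At bowl, for instance, the summits at 109 and 309 bp, with signals of 159 and 212, both carry replicate values of 142 and 76.2.

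Motifs known from broadly active promoters, the DRE, Ohler 1, Ohler 7 and the E-box, were found less often under upstream than under core summits. The DRE was found in 2 of 368 upstream windows of 75 bases on each side (0.543%; exact 95% binomial interval 0.0659 to 1.95), in 22 of 302 core windows (7.28%) and in 2.81% of all optimal windows. The 2 members were CG1827, with 76.9 in replicate 1 and 99.9 in replicate 2, and htk, with 84.5 and 50. In windows centred 212 bp upstream of the representative TSS of every protein-coding gene the DRE was present in 2.10%. The share in upstream windows was 1.06% without replicate 1 and 0.872% without replicate 2, against 7.08% and 6.21% of core windows. Ohler 1 was found in 3 upstream windows (0.815%, and 1.32% without replicate 1), against 4.64% of core windows and 1.32% of coding-gene windows. Ohler 7 occurred in 9 (2.45%), against 6.95% and 1.83%, and the E-box in 15 (4.08%), against 11.6% and 6.24%. Low shares were not particular to upstream peaks. Windows of peaks over 1000 bp from any coding TSS held the DRE in 0%, Ohler 1 in 0.358%, Ohler 7 in 0.715% and the E-box in 3.93%. In divergent windows the shares were 8.99%, 3.27%, 6.27% and 13.4%.

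DRE matches gathered at the summit in core peaks but not in upstream peaks. Within 50 bp of the summit there were 20 DRE matches over the 302 core peaks, 10 times the density over 300 bp away. In upstream peaks there was 1 match within 50 bp, 0.667 times the density farther out. Around the nearest TSS of the upstream peaks, rather than the summit, a window of 75 bases on each side held a DRE in 1.96% of 357 TSSs, against 7.95% of core TSSs and 7.11% of all coding genes. The DRE was thus at a low share both at the summits and at the start sites of upstream peaks. The E-box was not low at these start sites, at 11.5%, against 13.9% of core TSSs and 11.8% of all coding genes. Ohler 1 was at 3.92%, against 5.30% and 6.35%, and Ohler 7 at 2.24%, against 6.29% and 4.70%.

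**Figure D4:**
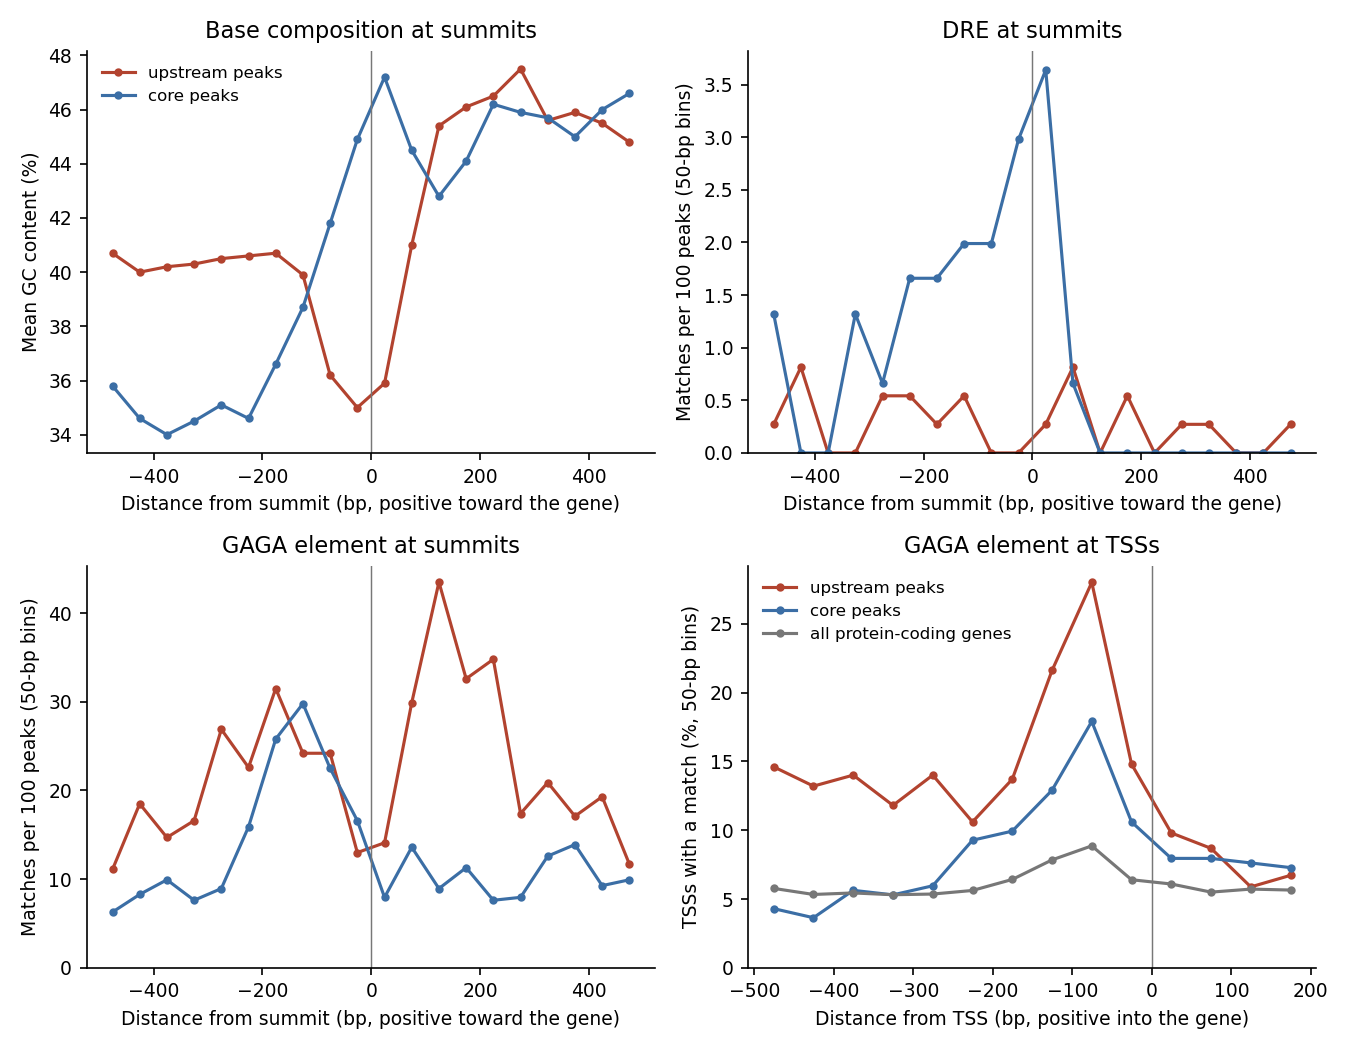
The first 3 panels plot the mean GC content (%) and the matches per 100 peaks to the DRE and to the GAGA element, in 50-bp bins by distance from the summit (bp, positive toward the gene), for 368 upstream and 302 core peaks. The last panel plots the percentage of TSSs with a GAGA element by distance from the TSS, with all 13945 coding genes in grey; it peaks over 50 and up to 100 bp upstream, at 28.0% for upstream peaks, 17.9% for core peaks and 8.86% for all genes.

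GAGA elements, bound by Trl and other factors, did not gather at the summits of upstream peaks and were denser toward the gene. GAGAG was found in 90 upstream windows (24.5%), 24.8% of core windows, 20.9% of all optimal windows and 15.3% of coding-gene windows. Within 50 bp of the summit the density was 0.837 times that farther out. It rose on both sides, more so toward the gene, from 14.1 matches per 100 peaks in the first 50 bp to 43.5 in the third. On the side away from the gene it was 13.0 in the first 50 bp and 31.5 in the fourth. Counted from the TSS, a GAGA element lay over 50 and up to 100 bp upstream at 28.0% of the 357 TSSs of upstream peaks, against 17.9% of core TSSs and 8.86% of all coding genes. Over 75 bases on each side of the TSS the shares were 37.8%, 27.8% and 17.9%. Members with the element in the summit window had a median signal of 126 and those without it 139.

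The base composition around the summits had a local low. In upstream peaks the mean GC content was 35% in the 50 bp before the summit, against 40.7% in the 50 bp that end 150 bp before it and 46.5% in the 50 bp that start 200 bp toward the gene. Core peaks had their high there, at 47.2% in the 50 bp after the summit. A low GC content is usual at this distance from a TSS: windows 212 bp upstream of every coding gene had a median of 35.8%. Divergent peaks, at 35.8%, and peaks over 1000 bp from any coding TSS, at 36.4%, were similar.

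TATAAA was present in 96 upstream windows (26.1%), 18.5% of core windows, 23.0% of all optimal windows and 27.2% of coding-gene windows. Within 50 bp of upstream summits it was 1.78 times as dense as farther out, but 83 of the 404 words of 6 bases common enough to compare had a higher ratio. The word with the highest was CTTAAC, at 3.0 times, and the median over all 404 was 1.39 times. Of the 10 highest, 4 contain the letters CTTAA. Counted around the summits of replicate 1 alone it was 3 of the 10, with CTTAAC again first, and around those of replicate 2 it was 2 of the 10, with TCTTAA first at 3.31 times. This shorter word, picked from these same windows, or its complement was found in 153 upstream windows (41.6%), 37.3% of divergent windows, 22.8% of core windows, 34.0% of all optimal windows, 34.1% of windows over 1000 bp from a coding TSS and 35.3% of coding-gene windows. Windows with it were poorer in GC, at a median of 33.8% against 36.4% without, and the signal medians were 137 with it and 131 without. In replicate 1 these medians were 76.7 and 78.8, in the opposite order.

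Of the other motifs, a run of 8 T or A was found in 37 upstream windows (10.1%), 4.64% of core windows and 9.35% of coding-gene windows. TGANTCA, the site of AP-1 factors, was found in 11 (2.99%), the CA repeat CACACACA in 5 (1.36%) and CAGGTAG, the site of the early activator Zelda, in 3 (0.815%). The shares in coding-gene windows were 3.28%, 1.98% and 0.889%. At least 1 of the 10 motifs was present in 209 upstream windows (56.8%), against 57.0% of all optimal windows.

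At the start sites themselves the 2 core promoter elements went opposite ways. A TATA box, searched as TATAAA starting 20 to 45 bases upstream, was present at 14 of 357 TSSs of upstream peaks (3.92%; exact 95% binomial interval 2.16 to 6.49), 31 of 302 TSSs of core peaks (10.3%; 7.08 to 14.3) and 8.85% of all coding genes. An Initiator, searched as TCAGT starting 12 bases before to 8 after the TSS, was present at 87 (24.4%; 20 to 29.2), 49 (16.2%; 12.3 to 20.9) and 13.8%. TSSs of upstream peaks are those nearest to a summit, while one representative TSS was taken for each coding gene.

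Genes of known pathways were followed in 16 lists. Of their 641 genes, 32 had an upstream peak (4.99%), against 342 of all 13945 coding genes (2.45%), and 70 had a core peak (10.9%, against 2.15%). A peak of any kind within 500 bp of a TSS was present at 171 list genes (26.7%), against 10.5% of all coding genes. Among genes with a peak, those with an upstream peak made up 18.7% in the lists and 23.4% over all coding genes. Most lists held 2 or fewer such genes, too few to rank the lists. Leaving out a replicate moved several shares over 1.5 times. Without replicate 1 the share was 5.26% in place of 10.5% in the Hippo list, 2.70% in place of 5.41% in the Wnt and Hedgehog list and 4.0% in place of 8.0% in the heat shock list. It was 9.76% in place of 4.88% in the neural and glial list and 9.09% in place of 4.55% in the cell death list. Without replicate 2 it was 0 in place of 5.0% in the JAK-STAT and JNK list, and 1.37% in place of 2.74% for mitochondrial ribosomal proteins.

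Of 31 genes of the Notch pathway 4 had an upstream peak (12.9%, against 2.45%). They were gro, described above, numb, an inhibitor of Notch (67.2 in replicate 1 and 61.6 in replicate 2), and the repressors E(spl)m3-HLH (60.8 and 80.5) and E(spl)m7-HLH (45.5 and 56.6), which Notch activates. The higher share was not particular to upstream peaks. Core peaks lay at 6 of the 31 Notch genes (19.4%, against 2.15% of all coding genes) and a peak of any kind at 32.3% (against 10.5%). Of 37 Wnt and Hedgehog genes 2 were members (5.41%, against 2.45%): the ligand wg (64.9 and 34.1) and the kinase sgg (183 and 136). Of 44 genes of the receptor tyrosine kinase and Ras pathway 2 were members (4.55%). These were the ligand spi (139 and 153) and the ETS factor pnt (113 and 41.6). The spi value was that of 1 of 2 summits at the same TSS.

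In the Hippo list 2 of 19 genes were members (10.5%, against 2.45% of all coding genes). They were the kinase dco (40.7 in replicate 1 and 60.6 in replicate 2) and app (76.6 and 73.2). In the JAK-STAT and JNK list 1 of 20 was a member (5.0%), the kinase Tak1 (46.9 and 39.1). The nuclear receptor Hnf4 (56.5 and 38.9) was the 1 of 30 genes of its list (3.33%). The cell death inducer hid (70.9 and 63.2) was the 1 of 22 (4.55%). No gene of the 21 in the BMP and activin list was a member. The replicate values named here lay at or below the member medians of 77.1 and 62.2, other than app and hid in replicate 2. In the Hippo list 21.1% of the genes had a core peak (against 2.15% of all coding genes) and 36.8% a peak of any kind (against 10.5%).

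Among 54 patterning transcription factors 5 were members (9.26%, against 2.45% of all coding genes, and 5.56% without replicate 1). They were cbt (154 in replicate 1 and 126 in replicate 2), bowl (142 and 76.2), bcd, the anterior morphogen (84.7 and 52.7), oc, a homeobox gene of the head (65.5 and 28.3), and ush, a partner of GATA factors (66.6 and 20.8). In chromatin proteins 2 of 51 were members (3.92%), ph-p and kis, a remodelling factor of the CHD family (44.5 and 38 at its stronger summit). Of 41 neural and glial genes 2 were members (4.88%). These were moody, a receptor of the blood-brain barrier (135 and 151), and elav, an RNA-binding protein of neurons (129 and 115). The values of cbt, bowl, ph-p, moody and elav lay above the member medians in both replicates. The summits of cbt, moody and elav lay in introns of other coding genes, ush, CG4313 and arg. Which of the genes such a peak belongs to was not tested.

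Structural and stress genes were also found. Of 50 cytoskeleton and adhesion genes 5 were members (10%, against 2.45% of all coding genes, and 6.0% without replicate 1). Among them were Rtnl1, the titin-like sls (105 in replicate 1 and 94.5 in replicate 2) and the nesprin Msp300 (96.6 and 69.4). The others were the polarity gene sdt (70.2 and 28.6) and the actin gene Act5C (150 and 48.6). Rtnl1 was counted because the list held it, although it is the reticulon of the endoplasmic reticulum described above. The small heat shock genes Hsp26 (103 and 55.8) and Hsp27 (48.3 and 87.7) were 2 of 25 in their list (8.0%), with opposite replicates higher. The pooled signal of Act5C was 95.0, below its replicate 1 value, which was that of the strongest replicate peak overlapping it.

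None of the 92 cytosolic ribosomal protein genes had an upstream peak, against 2.45% of all coding genes, and 2.17% of them did without replicate 1. An optimal peak within 500 bp of a TSS was present at 53 of them (57.6%, against 10.5% of all coding genes). Core peaks lay at 24 (26.1%, against 2.15%). Of 73 mitochondrial ribosomal protein genes 2 were members (2.74%, near the 2.45% of all coding genes), mRpL41 and mRpL4 (52.5 in replicate 1 and 39.1 in replicate 2). No mitochondrial ribosomal protein gene had a core peak (against 2.15%), and 13 had an optimal peak of any kind at a TSS (17.8%, against 10.5%). Shares of 2.45% and 2.15% amount to few genes in lists of this size, so the counts of 0 were not read further.

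**Figure D5:**
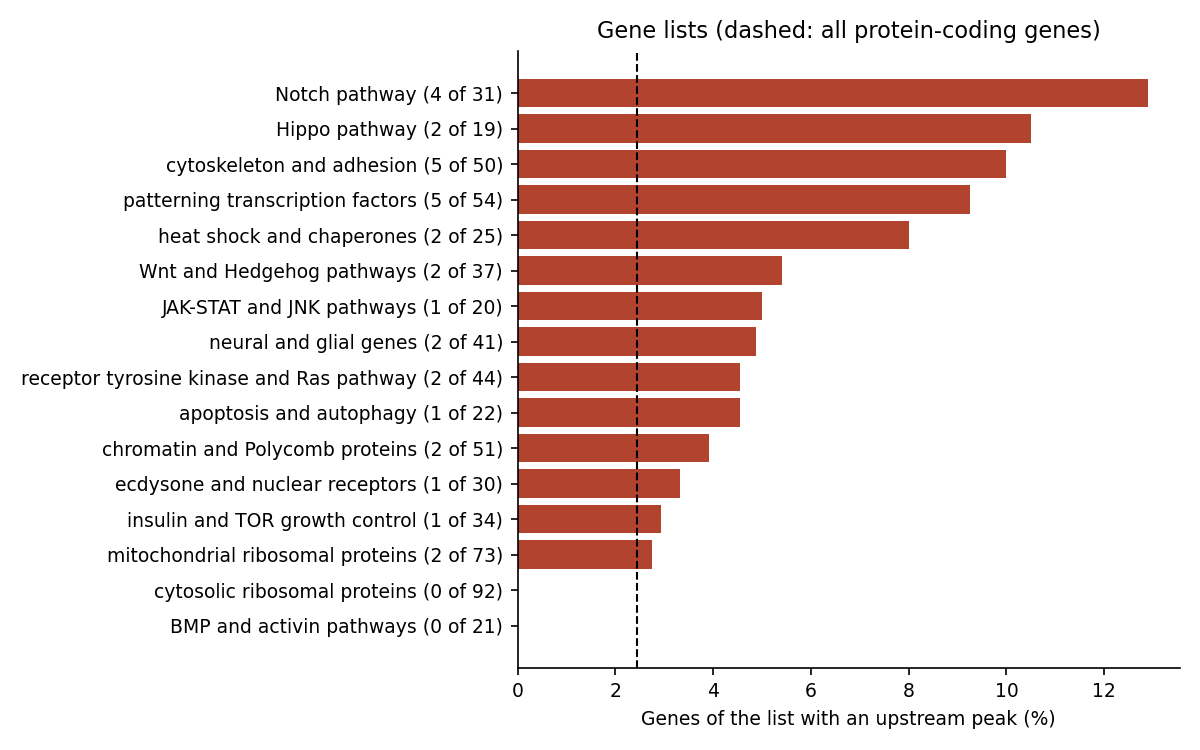
Percentage of the genes of each of 16 lists with an upstream peak, with counts beside the names; the dashed line is the 2.45% of all protein-coding genes. The Notch pathway is at 12.9% with 4 genes and the cytosolic ribosomal proteins (92 genes) and the BMP and activin list (21 genes) at 0. Without replicate 1 the cytosolic ribosomal list was at 2.17%, and without replicate 2 the BMP and activin list was at 4.76%. Core peaks, which are not drawn, lay at 19.4% of the Notch genes.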

How the data were processed

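Peak lists of 1 group of 2 replicates were used as deposited by the authors. Per the notes deposited with the lists, dm6 peaks were called against a control alignment, for either replicate and for both pooled, and the optimal list passed a threshold on the irreproducible discovery rate. No source used here names the caller, the aligner or the threshold. The signal of a peak is the score deposited by the authors, and the summit is the start plus the deposited offset (other). Without reads the depth is unknown, and no interval covers it. Lists on dm3 were not used here.

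TSSs came from Ensembl 115 and sequence from the Release 6 assembly. All optimal peaks fell inside its chromosomes, and 99.8% of annotated start codons read ATG there. As the replicate value of a peak, the strongest peak of that replicate overlapping it by at least 1 base was taken. Motifs were searched on both strands, 75 bases on each side of the summit. Binomial intervals are exact (Clopper-Pearson) and cover counting error only.

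Named genes were those of the 25 strongest members, the 5 nearest each limit, the 5 weakest, the 5 with the most unequal replicates and those in a list. Sequences were those of the strongest members outside 2R and of up to 3 members per motif. Other genes were named after their values were seen. A few items that this rule names are not reported here. The members and lists were chosen with earlier results of these data known, and 7 list symbols matched no gene. Results were recomputed under other windows, annotations, list lengths and replicates. The class rule and motif search were tested on simulated data. Python 3.11.15, pandas 2.3.3, numpy 2.4.6, SciPy 1.17.1 and matplotlib 3.10.9 were used.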

Additional observations from a re-analysis of the deposited data

How the results depend on the processing

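The share of 16.9% of optimal peaks was 21.2% in the strongest 1087 peaks of the list and 13.5% in the strongest 4348 pooled peaks. It was 13.3% with coding TSSs counted within 300 bp, 15.2% within 1000 bp and 12.6% with only the representative TSS, and 15.8% to 17.4% with either replicate left out. In the lists of 1 replicate, 280 and 283 of the 342 genes were again members. The median signal of upstream peaks stayed 1.08 to 1.42 times that of core peaks in all 8 alternatives, 5 of which were chosen after seeing the data. The list of 4348 pooled peaks was not among these alternatives, so the effect of the cut on this ratio was not tested. Peaks matched in both replicates were 65.8% with a reciprocal overlap of 50% and 71.7% with the replicate summit within 100 bp. The share with a peak at the same TSS before the filter was 5.29% and 13.7% with replicate 1 and replicate 2 left out, alternatives chosen after seeing the data. Windows with at least 1 motif were 44.3% with 50 bases on each side and 69.6% with 100. The share of list genes was 3.12% in the strongest 1087 peaks and 7.18% in the strongest 4348. Windows and lists of other lengths hold other numbers of motifs and genes by construction; other causes were not tested. The other 21 of 34 alternatives for these results stayed within the interval of the main value or, for the signal ratio, within 1.5 times of it. No paired analysis was possible because there is only 1 group. With 2 replicates and unknown depth, the spread between replicates is the only error available, and a summit moves by a median of 30 bp between them.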
